A study of Mus musculus with 8 samples.

Results

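The 9 genes described here run from the insulin and IGF receptors to the FoxO factors and genes that respond to them. They were read in crypts of the mouse small intestine. The 9 are the receptors Insr and Igf1r, the receptor substrates Irs1 and Irs2, the transcription factors Foxo1, Foxo3 and Foxo4, and the FoxO-responsive genes Txnip and Ccng2. They were taken by gene name from a table of 55880 genes, and each name matched 1 row. RNA-seq had been done on crypts of C57BL/6N mice, with 4 libraries labelled wild type and 4 labelled miR-29ab1-/-, all before irradiation. The labels give no age, sex, litter or other allele, and state no deletion or treatment shared by both groups. They do not say how each library relates to an animal, so p-values measure the spread between these 8 libraries.

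Insulin and IGF-1 bind receptor tyrosine kinases on the cell surface, which phosphorylate the IRS substrates and so recruit PI3 kinase. PI3 kinase activates AKT, and AKT phosphorylates FoxO factors and keeps them out of the nucleus. When the signal is low, FoxO factors enter the nucleus and raise genes of cell cycle exit, stress resistance and gluconeogenesis, among them Irs2 and Insr themselves. In the intestine, the pathway is known for coupling crypt growth to feeding. The miR-29 family lowers its targets through sites in their 3' untranslated regions (3' UTRs).

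Total counts per library ran from 13879472 to 17368666. The targeted locus was read first: Mir29a had 0 counts in each library, and Mir29b-1 had 0 in each wild-type library and 2, 5, 7 and 3 in labelled knockout replicates 1 to 4. Counts of a deleted hairpin would go against the label, but the labels do not give the extent of the deletion. The source of these few counts was not tested, so that group is called labelled knockout throughout. Crypt and epithelial markers were present in each library, with all 6 genes tested in each of the epithelial, stem cell, Paneth, goblet and enteroendocrine lists. Fibroblast and smooth muscle markers summed to 0.269 to 18.2 CPM (counts scaled to library size), and Slc4a1 was at 0 throughout, alone among the 6 red blood cell markers. Labelled knockout replicate 4 stood apart: 26.9% of the 14897 genes tested were highest there, against 7.44% to 14.2% in each other library. In that library the 6 villus enterocyte markers summed to 29300 CPM, against 5540 to 14200 elsewhere. These sums weigh most on Apoa1, which ran from 2040 to 17300 CPM over the 8 libraries, against 259 to 1010 for Fabp1. The interferon response markers of labelled knockout replicate 4 summed to 983 CPM against 85.6 to 178, and its cycling cell markers to 414 CPM against 646 to 1050. Its red blood cell markers, at 55.0 CPM, also had the highest sum of the 8 libraries. The log2 fold change of each of the 9 genes is therefore also given without that library. Paneth cell markers summed to 40300, 50500 and 31900 CPM in labelled knockout replicates 1 to 3 and to 14600 in replicate 4, against 18600 to 25000 in the wild-type group. The libraries left in the labelled knockout group without replicate 4 were therefore all above the wild-type ones in these markers. They were all below them in T cell markers, at 86.9, 86.5 and 105 CPM against 112 to 319, with 186 in replicate 4. The part of either list in the results was not tested. In bulk RNA, fewer cells of a type and less RNA per cell cannot be told apart.

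The sequences shown first are the miR-29 strands of the targeted locus and the letters matching their seed in 3 of the 9 genes. The mature miR-29 strands share 1 seed (bases 2 to 8, in capitals), as given by RefSeq on GRCm38.p6; the first is from the targeted locus on chromosome 6, and the second is made from that locus and from chromosome 1.
mmu-miR-29a-3p: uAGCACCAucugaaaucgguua
mmu-miR-29b-3p: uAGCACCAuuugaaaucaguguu
The DNA match to that seed, TGGTGCT, was searched on the transcript strand of the longest annotated 3' UTR of each gene (GENCODE M21, GRCm38). It was found once each in Irs1, Foxo1 and Foxo3, shown with 8 bases on each side and the match in capitals.
Irs1, chr1:82233366-82233388, minus strand: gaagatggTGGTGCTatcgacgg
Foxo1, chr3:52352544-52352566, plus strand: atggctgaTGGTGCTggcattcc
Foxo3, chr10:42185021-42185043, minus strand: aaaagttaTGGTGCTgtataggt
The Irs1 match is followed by an A, the longer form of the site, and those in Foxo1 and Foxo3 are not. All 3 lie in the 3' UTR, beginning 4246, 5571 and 1296 bases into it. The 3' UTRs of Insr, Igf1r, Irs2, Foxo4, Txnip and Ccng2 hold no such match. Of 12493 tested genes with a 3' UTR, 15.4% hold a match, and 23.5% of those with at least 1000 bases of 3' UTR do, as all 9 genes have (1234 bases or more). The 3 genes with a match had log2 fold changes of 0.07, 0.19 and 0.22, inside the range of the 6 without, from -0.03 to 0.74. Without labelled knockout replicate 4 the 3 were at 0.16, -0.02 and 0.03, and the 6 ran from -0.27 to 0.40. The Irs1 value rests on few counts. The same seed is in mmu-miR-29c-3p, made from chromosome 1. The effect of these matches was not tested.

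Per gene length, the levels of the 9 genes spanned a wide range. In FPKM, the mean and SD over the 8 libraries were 77.3 ± 30.1 for Txnip and 25.7 ± 19.9 for Ccng2. They were 12.5 ± 1.72 for Foxo4, 9.27 ± 1.92 for Foxo3, 8.43 ± 3.92 for Irs2 and 7.47 ± 0.736 for Insr. Foxo1 followed at 4.40 ± 0.990, Igf1r at 1.68 ± 0.476 and Irs1 at 0.116 ± 0.0620. Txnip was above Ccng2, Insr above Foxo1, Foxo1 above Igf1r, and Igf1r above Irs1 in each of the 8 libraries. Irs2 was above Insr in 5 of 8, Foxo3 above Irs2 in 6, Ccng2 above Foxo4 in 6 and Foxo4 above Foxo3 in 7, so these neighbours were not separated in every library.

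**Figure D1:**
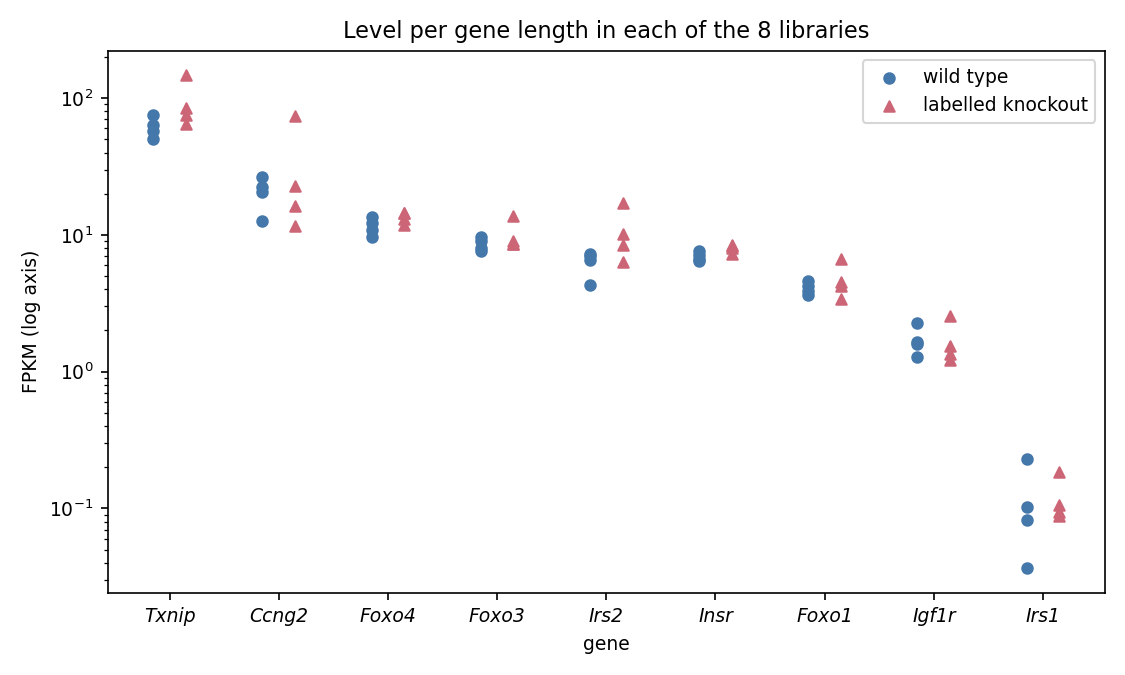
FPKM on a log axis for the 9 genes, ordered by mean level, with 1 point per library (circles wild type, triangles labelled knockout). Txnip lies at 50.6 to 147 FPKM in each library and Irs1 at 0.0365 to 0.230.

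Between the groups, 8 of the 9 genes had a log2 fold change above 0, where 52.0% of all genes tested did. Igf1r had one below 0, and none of the 9 passed the test. All 9 passed the filter on low counts, and 0 of 9 had an adjusted p under 0.05 in edgeR's quasi-likelihood test over 14897 genes, of which 0.0201% were called. DESeq2 and limma-voom also called 0 of the 9, against 0.148% and 0.0134% of all genes. At an unadjusted p under 0.05, edgeR gave 2 of the 9 (Irs2 and Txnip), where 2.70% of all genes had one. DESeq2 gave the same 2 and limma-voom gave 1 (Irs2), but their shares of all genes at this threshold are not given here. The CPM of the groups overlapped for all 9, and did not overlap for 1.53% of all genes. The median log2 fold change of the 9 was 0.22, against 0.011 over all genes tested. Without labelled knockout replicate 4 it was 0.16, against -0.007, with 7 of 9 above 0 and none called, against 0.0132% of all genes. Fold changes and CPM come from counts scaled to TMM library sizes, and 95% intervals are normal approximations from the SE.

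**Figure D2:**
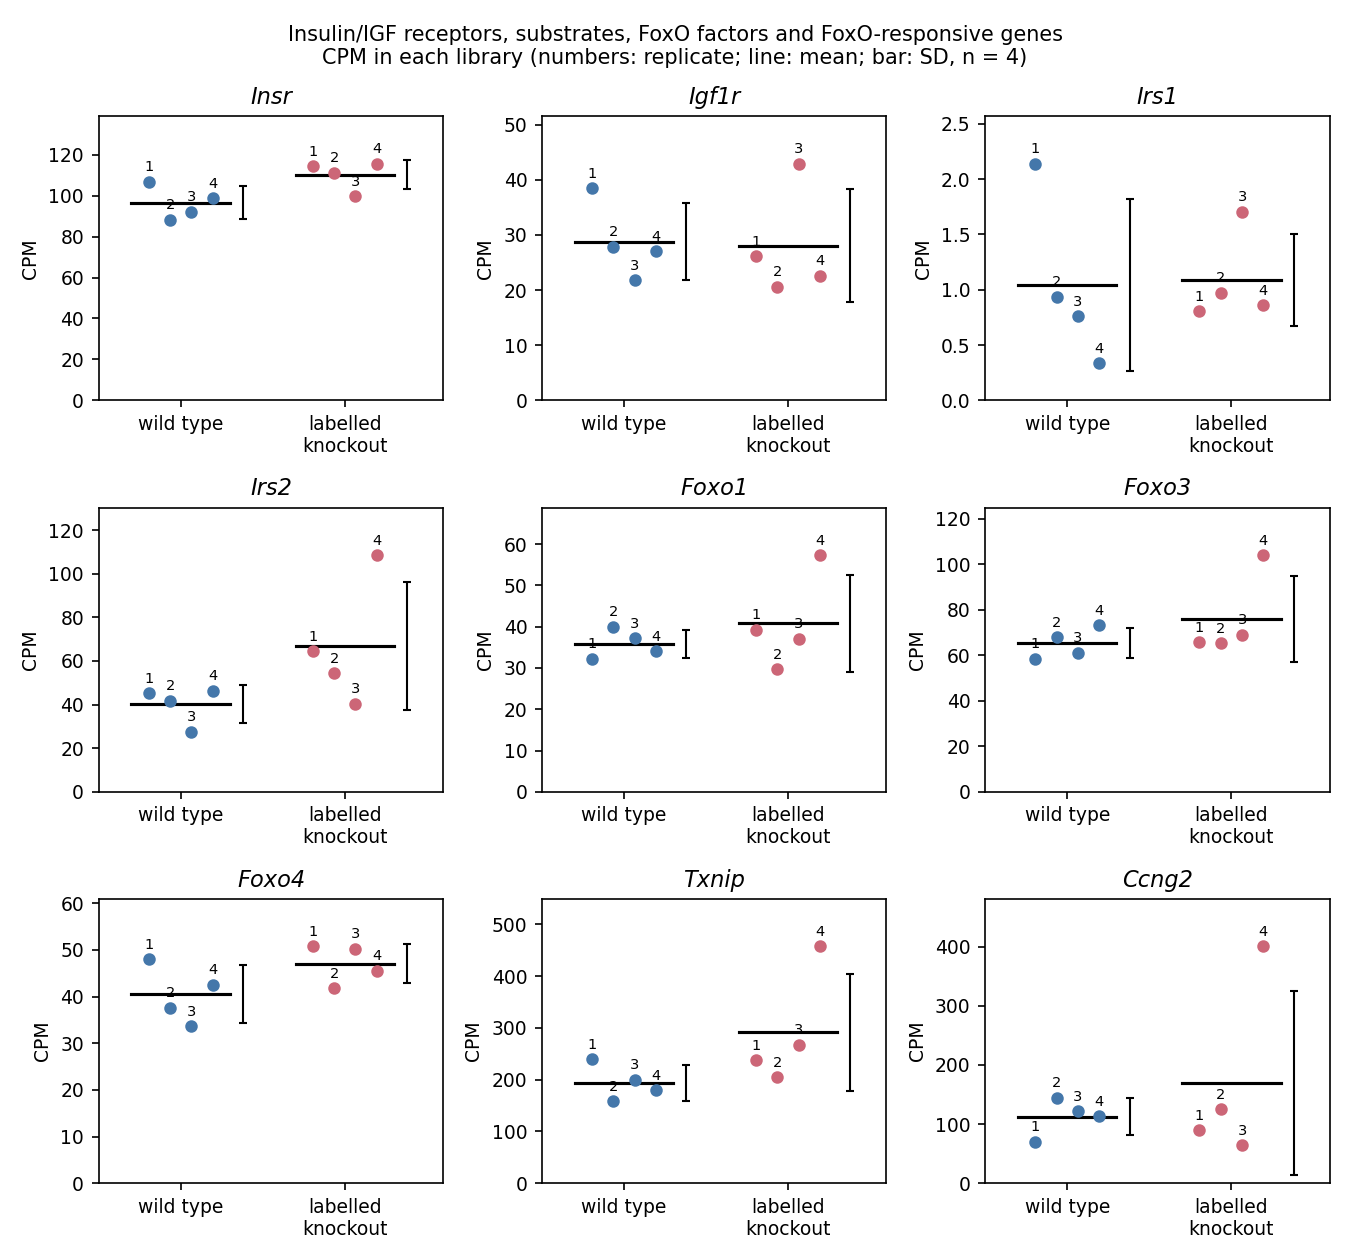
CPM of the 9 genes in each library, 1 panel per gene, with the replicate number at each point, the group mean as a line and the SD as a bar (n = 4). Labelled knockout replicate 4 is the highest point for Insr, Irs2, Foxo1, Foxo3, Txnip and Ccng2, and the groups overlap in each panel.

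Insr (ENSMUSG00000005534, chr8:3122061-3279617, minus strand, GRCm38), the insulin receptor, had 107, 88.3, 92.1 and 98.6 CPM in wild-type replicates 1 to 4. In labelled knockout replicates 1 to 4 it had 114, 111, 99.8 and 116 CPM. In the labelled knockout group, 3 libraries lay above all wild-type ones, and replicate 3 lay among them. This gave a log2 fold change of 0.19 (SE 0.11, 95% interval -0.02 to 0.40, adjusted p = 0.994 in edgeR), and leaving out labelled knockout replicate 4 gave 0.17. Insr was among the steadiest genes of the table: its SD within groups, 0.11 log2 CPM, was at the 5.3 percentile of all genes tested, whose median was 0.31.

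Igf1r (ENSMUSG00000005533, chr7:67952827-68233668, plus strand), the receptor for IGF-1, had 38.5, 27.8, 21.8 and 27.1 CPM in wild-type replicates 1 to 4. It had 26.2, 20.6, 42.9 and 22.6 CPM in labelled knockout replicates 1 to 4. A single library in each group was high, wild-type replicate 1 and labelled knockout replicate 3, and the other six lay together. On the log2 scale the groups differed by -0.03 (SE 0.26, 95% interval -0.54 to 0.47, adjusted p = 0.995 in edgeR). That value became -0.32 when labelled knockout replicate 3 was left out, 0.14 when wild-type replicate 1 was, and 0.061 when labelled knockout replicate 4 was. Per length, Insr exceeded Igf1r in each library, by 3.39, 3.87, 5.17 and 4.45 times in the wild-type libraries and by 5.34, 6.59, 2.84 and 6.25 times in the labelled knockout ones. The log2 ratio differed by 0.26 between the groups (exact two-sided permutation p = 0.371, adjusted p = 0.629 over 3 ratios, n = 4 each), and by 0.15 when labelled knockout replicate 4 was left out.

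Irs1 (ENSMUSG00000055980, chr1:82233101-82291416, minus strand), an adaptor that recruits PI3 kinase to the activated receptors, was close to the detection limit. It had 35, 15, 13 and 5 counts in wild-type replicates 1 to 4 and 11, 15, 29 and 11 in labelled knockout replicates 1 to 4. Its highest libraries were wild-type replicate 1 and labelled knockout replicate 3, as for Igf1r. Its log2 fold change was 0.07 (SE 0.52, 95% interval -0.96 to 1.09, adjusted p = 0.996 in edgeR). No direction could be told at this depth: the value was -0.25 when labelled knockout replicate 3 was left out and 0.68 when wild-type replicate 1 was. Leaving out wild-type replicate 3 gave -0.06, wild-type replicate 4 gave -0.22 and labelled knockout replicate 4 gave 0.16.

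Irs2 (ENSMUSG00000038894, chr8:10984681-11008458, minus strand), the second substrate and itself a FoxO-responsive gene, had the largest log2 fold change of the 9. It had 45.2, 41.7, 27.6 and 46.3 CPM in wild-type replicates 1 to 4 and 64.5, 54.4, 40.5 and 109 CPM in labelled knockout replicates 1 to 4. In the labelled knockout group, 3 libraries lay above all wild-type ones, and replicate 3 lay within their range. Irs2 had a log2 fold change of 0.74 (SE 0.29, 95% interval 0.16 to 1.31, unadjusted p = 0.0334, adjusted p = 0.994 in edgeR), at the 97.0 percentile of all genes. Without labelled knockout replicate 4 it was 0.40 (SE 0.21). The authors' deposited table gives Irs2 a log2 fold change of 0.74 and an unadjusted p of 0.0191 (DESeq2), and Irs2 is among the 670 genes of the heat map. The deposited adjusted p of Irs2 is not under 0.05. These values come from the same 8 libraries and are not independent support.

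Irs2 was far above Irs1 per length in each library. The ratio was 30.5, 64.3, 52.6 and 200 in the wild-type libraries and 116, 80.8, 34.3 and 183 in the labelled knockout ones. These ratios rest on the few counts of Irs1. Their log2 values differed by 0.38 between groups (exact two-sided permutation p = 0.629, adjusted p = 0.629, n = 4 each), by -0.0043 without wild-type replicate 1 and by 0.022 without labelled knockout replicate 4.

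The 3 FoxO factors are close relatives that bind the same DNA core. Foxo1 (ENSMUSG00000044167, chr3:52268336-52353221, plus strand) had 32.3, 40.0, 37.2 and 34.0 CPM in wild-type replicates 1 to 4. It had 39.2, 29.7, 37.1 and 57.4 CPM in labelled knockout replicates 1 to 4. Labelled knockout replicate 4 was high, and the other three libraries of that group spread around the wild-type ones. Foxo1 had a log2 fold change of 0.19 (SE 0.19, 95% interval -0.19 to 0.56, adjusted p = 0.994 in edgeR), and of -0.019 without that library.

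Foxo3 (ENSMUSG00000048756, chr10:42181841-42276755, minus strand) had 58.6, 67.9, 61.2 and 73.2 CPM in wild-type replicates 1 to 4 and 65.6, 65.3, 69.0 and 104 CPM in labelled knockout replicates 1 to 4. Labelled knockout replicate 4 stood alone, and the other three libraries of its group lay within the wild-type range. Foxo3 had a log2 fold change of 0.22 (SE 0.17, 95% interval -0.11 to 0.55, adjusted p = 0.994 in edgeR), and of 0.03 (SE 0.11) without that library.

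Foxo4 (ENSMUSG00000042903, chrX:101254528-101260873, plus strand) had 48.1, 37.6, 33.7 and 42.6 CPM in wild-type replicates 1 to 4 and 50.8, 41.8, 50.2 and 45.6 CPM in labelled knockout replicates 1 to 4. In contrast to Foxo1 and Foxo3, its highest library was labelled knockout replicate 1, and replicate 4 lay within the wild-type range. Foxo4 had a log2 fold change of 0.22 (SE 0.13, 95% interval -0.04 to 0.48, adjusted p = 0.994 in edgeR), and leaving out labelled knockout replicate 4 gave 0.24. The difference in fold change between Foxo4 and the other FoxO factors was not tested.

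Of the summed FPKM of these 3 factors, Foxo4 made up 39.1% to 54.6% across the 8 libraries, Foxo3 30.6% to 41.1% and Foxo1 14.3% to 19.8%. The lowest share of Foxo4 and the highest shares of the other two were those of labelled knockout replicate 4. Foxo1 was at 0.398 to 0.531 of the Foxo3 level per length in each library, and the log2 ratio differed by -0.05 between the groups (exact two-sided permutation p = 0.571, adjusted p = 0.629 over 3 ratios, n = 4 each), and by -0.062 when labelled knockout replicate 4 was left out. The level of each one ranged more widely, over 1.93 times for Foxo1 and 1.78 times for Foxo3 in CPM.

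Txnip (ENSMUSG00000038393, chr3:96557957-96561883, plus strand) encodes the thioredoxin-interacting protein, which binds thioredoxin and lowers glucose uptake. It had 239, 158, 200 and 179 CPM in wild-type replicates 1 to 4 and 237, 205, 267 and 457 CPM in labelled knockout replicates 1 to 4. In the labelled knockout group replicates 3 and 4 lay above all wild-type libraries, and replicates 1 and 2 lay among them. Txnip had a log2 fold change of 0.59 (SE 0.26, 95% interval 0.08 to 1.09, unadjusted p = 0.0468, adjusted p = 0.994 in edgeR). Without labelled knockout replicate 4 it was 0.29 (SE 0.16). In the authors' deposited table Txnip has a log2 fold change of 0.59 and an unadjusted p of 0.0308 (DESeq2), and it too is in the heat map. Its deposited adjusted p is not under 0.05, and these values come from the same libraries.

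Ccng2 (ENSMUSG00000029385, chr5:93267257-93276231, plus strand) encodes cyclin G2, an unusual cyclin of resting cells that restrains the cell cycle. It had 70.1, 144, 122 and 113 CPM in wild-type replicates 1 to 4 and 89.7, 125, 64.1 and 400 CPM in labelled knockout replicates 1 to 4. A single library set the group difference: labelled knockout replicate 4 was 3.55 times the median of the other seven, and the lowest library was labelled knockout replicate 3. Ccng2 had a log2 fold change of 0.60 (SE 0.53, 95% interval -0.45 to 1.64, adjusted p = 0.994 in edgeR), which turned to -0.27 (SE 0.29) without that library. The SD within groups, 0.87 log2 CPM, was at the 93.9 percentile of all genes.

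**Figure D3:**
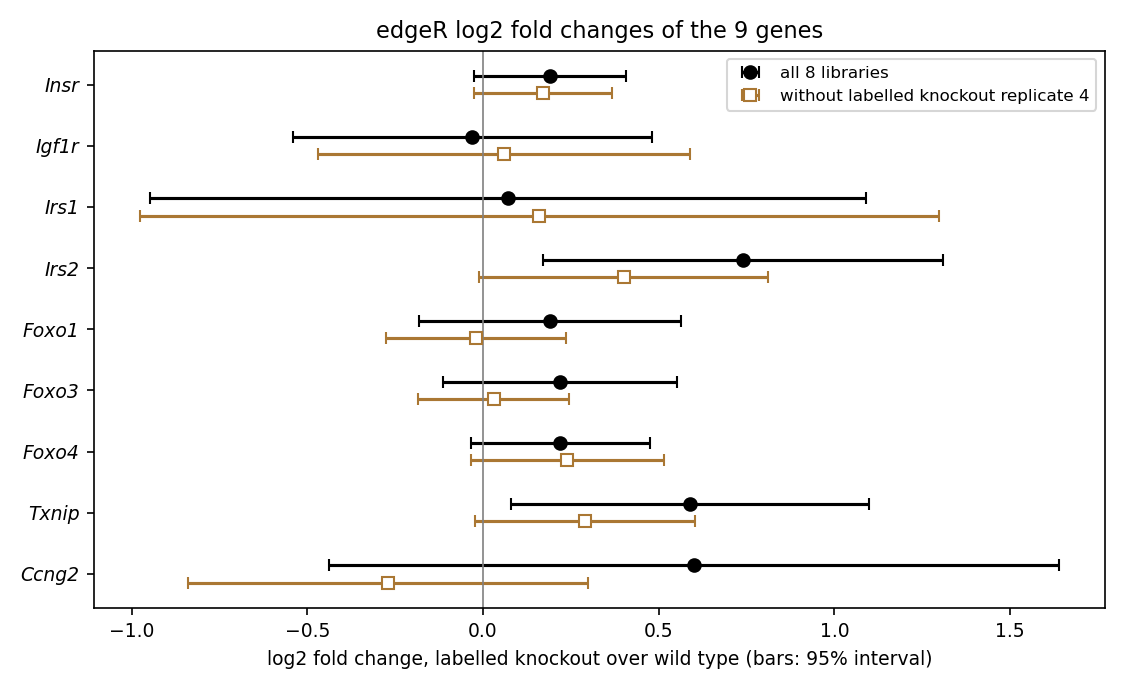
edgeR log2 fold changes (labelled knockout over wild type) of the 9 genes with 95% intervals, from all 8 libraries (filled circles) and without labelled knockout replicate 4 (open squares). Irs2 moves from 0.74 to 0.40, Txnip from 0.59 to 0.29 and Ccng2 from 0.60 to -0.27, while Insr and Foxo4 move little.

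Across libraries the 9 genes fell into different patterns, and the marker lists moved with some of them. Of the 9, 6 were highest in labelled knockout replicate 4, where 26.9% of all tested genes were highest. Over the median of the other 7 libraries, that library had 2.40 times as much Irs2, 2.23 times as much Txnip, 1.59 times as much Foxo3, 1.55 times as much Foxo1 and 1.16 times as much Insr. Igf1r and Irs1 were at 0.835 and 0.916 of that median there. Ccng2 was lowest in wild-type replicate 1 and labelled knockout replicate 3. The summed CPM of the 6 villus enterocyte markers was lowest in the same libraries, at 6720 and 5540, against 12300 to 29300 in the rest, with the highest sum, 29300, in labelled knockout replicate 4. Igf1r and Irs1 were highest in those libraries, where the stem cell markers summed to 3420 and 2810 CPM. Olfm4 carried most of that sum, at 839 to 2930 CPM over the libraries, against 43.4 to 98.2 for Lgr5. The sum therefore does not show that each stem cell marker was high there. Those stem cell markers also reached 3160 CPM in labelled knockout replicate 1, where Igf1r was not high, and were lowest in labelled knockout replicate 4, at 1150 CPM. Cycling cell markers summed to 1050 and 1010 CPM in the former pair of libraries and to 414 to 963 in the rest. Enteroendocrine markers were also highest in that pair, at 470 and 602 CPM, against 209 to 374 in the rest. The lists set beside these genes were picked from the 15 marker lists after their values were seen. The part of cell composition in these patterns was not tested.

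**Figure D4:**
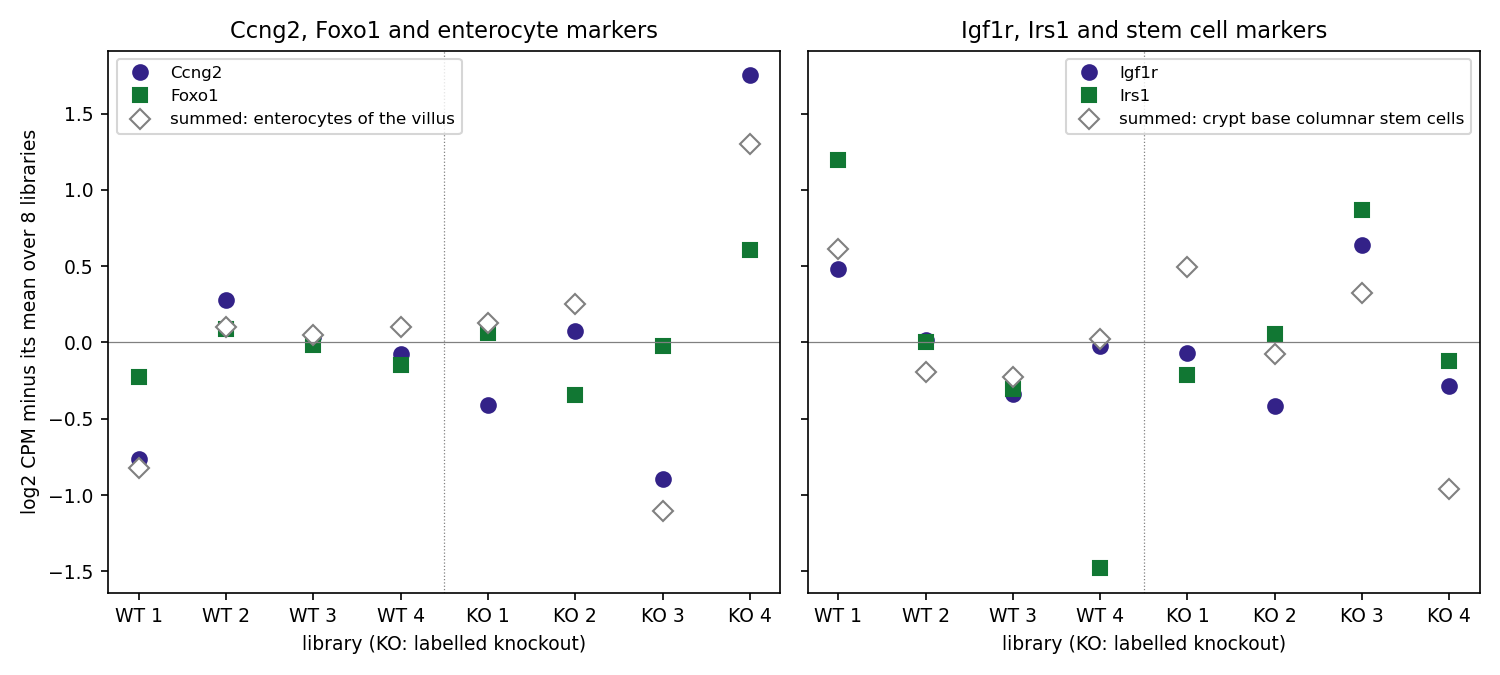
Log2 CPM minus its mean over the 8 libraries, by library (WT wild type, KO labelled knockout), for Ccng2, Foxo1 and the summed enterocyte markers (left) and Igf1r, Irs1 and the summed stem cell markers (right), pairings chosen after their values were seen. Ccng2 and the enterocyte markers are both lowest in wild-type replicate 1 and labelled knockout replicate 3 and highest in labelled knockout replicate 4, while Igf1r and Irs1 are highest in the former pair. Foxo1 is also highest in labelled knockout replicate 4. It is lowest in labelled knockout replicate 2, at 29.7 CPM, where the enterocyte markers summed to 14200 CPM. The sums weigh most on Apoa1 (left) and Olfm4 (right).

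The genes with the most similar pattern over the 8 libraries were named by the root mean square difference between centred log2 CPM. For Ccng2 these were Slc16a5, a monocarboxylate transporter family gene, at 0.11 and Ezr, which encodes ezrin of the brush border, at 0.12, where Ccng2 itself varied by 0.77. Foxo4 was closest to Rbl2, the p130 pocket protein gene, and Cachd1 (both 0.07, own variation 0.19). Irs2 was closest to Erbb3, a receptor of the EGF receptor family, and Zfp773 (both 0.18, own variation 0.54). Igf1r was closest to an unnamed transcript and Snx10, a sorting nexin (both 0.10, own variation 0.36). Txnip was closest to Gm20559 at 0.14 and Shld2 at 0.15 (own variation 0.44), and Irs1 to Adora1 at 0.26 and Pik3ap1 at 0.29 (own variation 0.65). Insr was closest to Vps18 at 0.04 (own variation 0.14). Foxo1 was closest to Id2 and Hace1 (both 0.09, own variation 0.27), and Foxo3 to Atxn7 and Vamp3 (both 0.07, own variation 0.24). These likenesses over 8 libraries are descriptions, with no test.

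The promoters of the 2 genes with an unadjusted p under 0.05 are shown because they carry different motifs. RefSeq (GRCm38.p6) gave windows from 250 bases before to 50 after the start for 7 of the 9 genes. The FoxO core TGTTTAC, searched on both strands, was present in 1 of the 7, Txnip, and in 3.65% of all 32851 windows. The E-box CACGTG, which reads the same on both strands, was present in Irs1 and Irs2 and in 7.15% of all windows. Capitals mark the motifs, which do not overlap in these windows; that of Txnip reads in reverse complement on the gene's strand.
Txnip, chr3:96557707-96558006, plus strand: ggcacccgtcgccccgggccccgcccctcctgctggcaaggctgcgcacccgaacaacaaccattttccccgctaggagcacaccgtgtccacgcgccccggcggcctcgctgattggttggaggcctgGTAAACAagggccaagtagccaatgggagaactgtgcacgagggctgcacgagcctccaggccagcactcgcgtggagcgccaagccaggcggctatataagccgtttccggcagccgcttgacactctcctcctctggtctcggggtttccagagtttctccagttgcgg
Irs2, chr8:11008880-11009179, minus strand: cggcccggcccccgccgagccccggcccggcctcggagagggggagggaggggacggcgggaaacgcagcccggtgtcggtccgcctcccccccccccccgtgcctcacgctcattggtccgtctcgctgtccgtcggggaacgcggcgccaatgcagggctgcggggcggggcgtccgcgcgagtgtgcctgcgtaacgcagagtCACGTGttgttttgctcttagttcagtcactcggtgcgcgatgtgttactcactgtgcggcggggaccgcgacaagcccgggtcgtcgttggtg
The match in Txnip begins 121 bases before the start and that in Irs2 44 bases before it. The RefSeq start of Irs2 lies upstream of the gene span in the count table. The windows of Igf1r, Foxo1, Foxo3 and Ccng2 hold neither motif, and a match of letters is not evidence of binding.

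Upstream of the receptors, ligand transcripts were scarce in the crypts. Ins1 and Ins2 had 0 counts in each library, Igf1 had 0 to 5 and Igf2 1 to 16, so these hormones were at or near the detection limit here. Of 14 ligands, binding proteins and relatives, 6 were tested, with none called, against 0.0201% of all genes. Of these 6, 4 were above 0, against 52.0% of all genes, with a median of 0.07, against 0.011. Igf2r, the clearance receptor for IGF-2, was the most abundant, with a mean and SD over 4 libraries of 151 ± 17.5 CPM (labelled knockout) and 141 ± 6.18 CPM (wild type). Insrr, an orphan receptor related to Insr, had 23.0, 7.14, 34.8 and 16.9 CPM in the wild-type libraries and 44.7, 52.0, 12.8 and 45.0 in the labelled knockout ones, with overlapping groups; its fold change was 0.91 on the log2 scale (SE 0.51, adjusted p = 0.994 in edgeR), and 0.83 without labelled knockout replicate 4. Igfbp6, an IGF binding protein, had -0.99 (SE 0.98), and -1.33 when labelled knockout replicate 4 was left out. Igfbp6 reached 10.6 CPM in wild-type replicate 1, where the fibroblast markers were also highest at 18.2 CPM; their part in the result was not tested.

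Downstream, no adaptor and no gene of the PI3 kinase arm passed the test. Of 8 adaptors tested among 10, 5 were above 0, against 52.0% of all genes, and the median was 0.03, against 0.011. At an unadjusted p under 0.05 there was 1 adaptor (12.5%), against 2.70% of all genes. Gab1, a docking protein of receptor kinases, was at 0.48 (SE 0.20, adjusted p = 0.994 in edgeR), and at 0.25 without labelled knockout replicate 4. Shc1 and Sh2b1, adaptors of the receptors, were at 0.07 (SE 0.10) and 0.09 (SE 0.11). All 22 genes of the PI3 kinase, AKT and mTOR arm were tested, with 12 above 0, a median of 0.02 and 1 gene (4.55%) at an unadjusted p under 0.05.

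Within that arm, Pik3r2, a regulatory subunit of PI3 kinase, stood lowest. It had 8.07, 20.0, 20.0 and 17.8 CPM in the wild-type libraries and 5.72, 9.67, 4.18 and 4.30 in the labelled knockout ones. The groups overlapped through wild-type replicate 1 and labelled knockout replicate 2. Pik3r2 was at -1.46 (SE 0.36, unadjusted p = 0.00251, adjusted p = 0.994 in edgeR), and at -1.33 without labelled knockout replicate 4. Pik3cb, a catalytic subunit, had a small and steady difference of 0.20 (SE 0.10, edgeR adjusted p = 0.994). It ran from 23.0 to 24.4 CPM in the wild-type group and from 26.4 to 28.4 in the labelled knockout group, without overlap, as did 0.913% of all genes in that direction. Sgk1, a kinase related to AKT that also acts on FoxO factors, was at 1.57 (SE 0.77). Sgk1 reached 1255 CPM in labelled knockout replicate 4 against 63.0 to 338 elsewhere, and its log2 fold change was 0.35 without that library.

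The list of 28 other FoxO-linked genes, which includes the fourth factor Foxo6, also lay mostly above 0. Of 27 tested, edgeR called 0, and 24 had a log2 fold change above 0, against 52.0% of all genes tested. The median was 0.31, against 0.011 over all genes. DESeq2 called 1, Pdk4, and limma-voom 0, against 0.148% and 0.0134% of all genes. At an unadjusted p under 0.05 there were 7 genes, 25.9% of the list against 2.70% of all genes. The median was 0.20 with 20 above 0 without labelled knockout replicate 4. In that library 15 of the 27 were highest, where 26.9% of all genes tested were. The list holds genes raised in fasting, was chosen with earlier results on Pdk4 known, and is described here without a test of the list.

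Pdk4, a kinase that shuts pyruvate out of the mitochondrial oxidation path, had 15.4, 11.6, 7.76 and 9.33 CPM in the wild-type libraries and 81.0, 35.2, 22.8 and 229 in the labelled knockout ones, without overlap. Its fold change was 3.06 on the log2 scale (SE 0.69, adjusted p = 0.994 in edgeR) and 2.07 when labelled knockout replicate 4 was left out, and DESeq2 gave an adjusted p of 4.98e-04, against 0.999 in limma-voom. Klf15, a transcription factor of fasting metabolism, had 8.80, 7.01, 11.1 and 9.20 CPM against 18.5, 22.4, 11.4 and 26.0. The Klf15 groups did not overlap, although wild-type replicate 3 and labelled knockout replicate 3 lay close together, and the log2 fold change was 1.11 (SE 0.25, edgeR adjusted p = 0.994, DESeq2 adjusted p = 0.0510). Without labelled knockout replicate 4 Klf15 was at 0.95.

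Bcl2l11, which encodes the pro-apoptotic protein Bim, had 17.1, 14.8, 11.6 and 14.9 CPM in the wild-type libraries and 24.0, 19.2, 18.1 and 25.3 in the labelled knockout ones. Bcl2l11 was at 0.57 (SE 0.17, adjusted p = 0.994 in edgeR), and at 0.49 without labelled knockout replicate 4. Map1lc3b, an autophagy gene, was the last of 4 of the 27 genes whose groups did not overlap, against 0.913% of all genes in that direction, at 0.24 (SE 0.10) and at 0.20 without labelled knockout replicate 4; both it and Bcl2l11 are named after their values were seen. Pck1, a gluconeogenic enzyme, was the most abundant of the list. Pck1 had 2736 CPM in labelled knockout replicate 4 and 144 to 480 elsewhere, and its log2 fold change of 2.27 (SE 0.75, adjusted p = 0.994 in edgeR) was 0.90 without that library. The 3 genes below 0, also named after their values were seen, were Klf2, a transcription factor, at -0.23, Sod2, a mitochondrial antioxidant enzyme, at -0.19, and Cdkn1b, the cell cycle inhibitor p27, at -0.02.

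**Figure D5:**
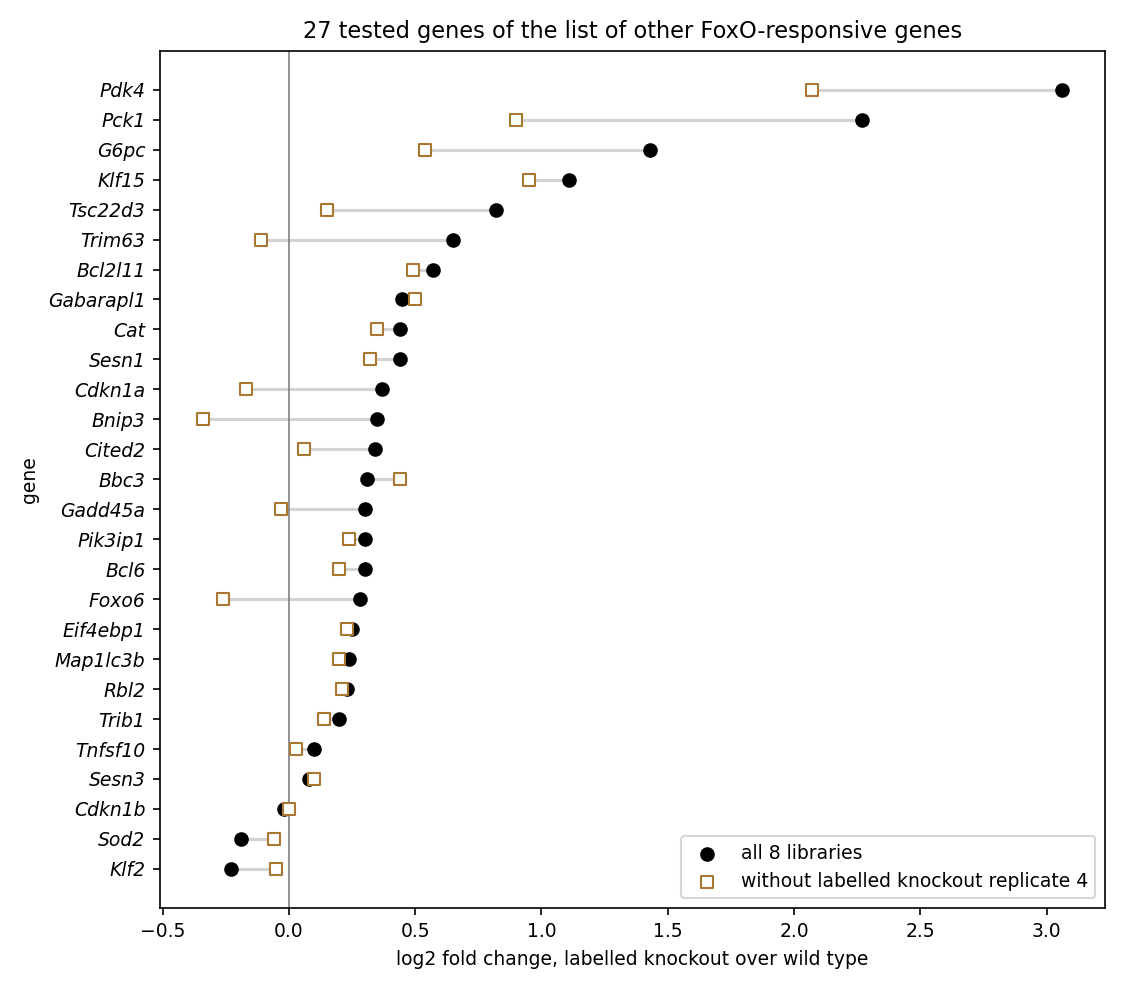
edgeR log2 fold changes (labelled knockout over wild type) of the 27 tested genes of the FoxO-linked list, ordered by size, from all 8 libraries (filled circles) and without labelled knockout replicate 4 (open squares). Of the 27, 24 lie above 0 with all libraries and 20 without that library, and Pdk4 has the largest value in both.

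No partner of Txnip and no relative of cyclin G2 passed the test. Of 12 thioredoxin and glucose-sensing genes tested, none was called, against 0.0201% of all genes. Of these 12, 7 were above 0, against 52.0% of all genes, and the median was 0.02, against 0.011. Without labelled knockout replicate 4, 4 were above 0 and the median was -0.03. Txnrd2, the mitochondrial thioredoxin reductase, was at 1.01 (SE 0.50) from low levels of 0.940 to 10.5 CPM, and Slc2a1, the glucose transporter GLUT1, at -0.31 (SE 0.17). Without labelled knockout replicate 4 they were at 1.06 and -0.19. Slc5a1, the sodium-glucose transporter of enterocytes, was the most abundant of these and reached 5547 CPM in labelled knockout replicate 4 against 830 to 3211 elsewhere, with a log2 fold change of 0.14 (SE 0.56) and of -0.57 without that library. Of 7 other cyclins, none was called and 6 were below 0, where 52.0% of all genes tested were above 0. The median of these cyclins was -0.25, against 0.011 over all genes tested. Without labelled knockout replicate 4 it was -0.06, against -0.007. Ccne1, a cyclin of S-phase entry, was at -0.35 (SE 0.19), Ccnd1 at -0.26 (SE 0.26) and the most abundant, Ccnd2, at -0.17 (SE 0.18). Without labelled knockout replicate 4 these were at -0.31, -0.09 and -0.08. The adjusted p of each of these 6 genes was 0.994 in edgeR.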

How the data were processed

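Whole-number counts per gene and library, as deposited by the authors, were tested (strand-marking kit, per the labels). Per the submitters' processing notes, HISAT2 and DESeq2 were used; versions, counter, strand setting, annotation and build: not given in the sources used here. FPKM values, as deposited by the authors, equal counts over gene length times 1 factor per library (within 0.1%). The authors' deposited table also holds group means of normalized counts (a signal), log2 fold changes and p-values. Coordinates of all 9 genes equal GENCODE M21 (GRCm38).

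Counts were fitted with edgeR 4.0.16 in R 4.3.3 (quasi-likelihood test, robust, TMM, filterByExpr, Benjamini-Hochberg adjustment, threshold 0.05), checked on simulated data. The SE is the absolute log2 fold change over the square root of F. Log2 CPM used a prior count of 2. Ratios of FPKM, without a pseudocount, were compared by exact permutation over 70 arrangements (smallest p 0.0286).

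Alternatives were RLE factors, DESeq2 1.42.0, limma-voom (limma 3.58.1), no filter, 5 CPM in 4 libraries, a replicate block, 0.5 FPKM added to ratios and leaving out each library. The members and the 6 pathway and 15 marker lists were chosen with earlier results of these data known. Genes named per pathway list are the 2 smallest p and the most abundant, and for each member the 2 nearest patterns among tested genes with a mean log2 CPM above 1; for Insr, 1 of these is not reported here. Within a group, each pair of libraries differed by more than counting noise (chi-square over its degrees of freedom 32.4 or more). Genes overlapping members had at most 15 counts in a library (Gm15441, opposite Txnip).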

Additional observations from a re-analysis of the deposited data

Results flagged for a closer look

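Among the 24 groups of 4 libraries checked (the CPM of the 9 genes and the log2 values of 3 ratios, in each group), 1 held a library far from the rest, and chance flags about 1 group in 20. Foxo3 had 104.1 CPM in labelled knockout replicate 4, and its gap to the nearest library of its group was 0.905 of that group's range. The other three libraries of that group had 65.3 to 69.0 CPM.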

How the results depend on the processing

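No member was called in any of the 14 alternatives, and the smallest adjusted p of a member was 0.585. Genes called numbered 3 with edgeR, 22 with DESeq2 (19 higher), 5 without a filter and 2 to 3 when single libraries were left out. The same-numbered libraries did not deviate together (r across genes 0.074, 0.034, -0.388 and -0.087), and different-numbered ones gave -0.186 to 0.316. The labels do not say what a shared number means, and these values cannot tell whether such libraries share a litter or day. With the replicate block, 2 genes and 0 members were called, and Irs2 had a log2 fold change of 0.67, Txnip 0.53, Ccng2 0.24 and Irs1 0.23. With limma-voom Ccng2 was at 0.28 and Irs1 at 0.29, and with 0.5 FPKM added the log2 ratio of Irs2 over Irs1 differed by 0.61. The ratio differences under the replicate block were 0.26, 0.38 and -0.046 (exact sign-flip p = 0.625, 0.75 and 0.75, n = 4 pairs, smallest possible 0.125).

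Insr, Irs2, Foxo3, Foxo4 and Txnip kept their direction in each alternative. Leaving out 1 library at a time gave Igf1r -0.32 to 0.14, Irs1 -0.25 to 0.68, Foxo1 -0.019 to 0.31 and Ccng2 -0.27 to 0.86. Signs reversed for Igf1r on leaving out wild-type replicate 1 (0.14), or labelled knockout replicate 2 (0.089) or 4 (0.061). Signs reversed for Irs1 on leaving out labelled knockout replicate 3 (-0.25), or wild-type replicate 3 (-0.06) or 4 (-0.22). Those of Foxo1 (-0.019) and Ccng2 (-0.27) reversed with labelled knockout replicate 4 left out. The same leaving out moved the log2 ratio difference of Insr over Igf1r from 0.13 to 0.53, of Irs2 over Irs1 from -0.0043 to 0.90, and of Foxo1 over Foxo3 from -0.13 to 0.029 (0.00093 without wild-type replicate 3). Irs1 did not pass the filter of 5 CPM in 4 libraries. The cause of these shifts was not tested, and its counts limit Irs1.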
